A study of Mus musculus with 8 samples.

Results

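Knockdown of Cnot7, a poly(A) tail-shortening enzyme, was compared with a scrambled hairpin in cultured mouse hippocampal neurons, using total poly(A) RNA in 2 libraries against 2. The comparison covered the 7165 genes, of 23845 in the deposited table, whose mean over these 4 libraries was at least 20 TPM, a share of the library's transcripts that is corrected for their length. Neurons were taken from embryos at embryonic day 19 and kept as primary cultures. Both groups received lentivirus at 13 to 15 days in vitro, with a scrambled hairpin in one and a hairpin directed at CNOT7 in the other, and both were harvested at day 17 to 19. Poly(U) agarose captured the RNA and a 75 °C elution released it, so that tails of all lengths were kept. The other 4 of the 8 libraries in the series were washed at 50 °C first, which per the labels takes away tails under 50 nucleotides, and they are used below only where named. The labels give no mouse strain. Nor do they state that a group's 2 libraries were made from different cultures, and a p-value therefore measures only how these libraries spread.

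The CCR4-NOT complex is the main cytoplasmic deadenylase of animal cells: it removes adenosines from the 3′ end of mRNAs, a step that precedes decapping and decay. CNOT1 is its scaffold, CNOT7 and its close relative CNOT8 are interchangeable catalytic subunits that bind to it, and CNOT6 and CNOT6L are the other pair of nucleases. Adaptors bring the complex to chosen mRNAs, among them TOB and BTG proteins, the TNRC6 proteins of the microRNA pathway, Pumilio proteins and proteins that bind AU-rich elements. In neurons, tail length is also tied to the translation of mRNAs stored near synapses.

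Differences below are on the log2(TPM + 1) scale, knockdown minus scrambled, with their standard error (SE) and a two-sided limma test over all 7165 genes. This scale understates the change of low genes. TPM values are given for libraries 1 and 2 of a group in that order, and where 1 pair stands against another, the knockdown pair comes first. At a Benjamini-Hochberg adjusted p under 0.05, limma called no gene in either direction (0% higher and 0% lower), and the smallest adjusted p was 0.195. At an unadjusted p under 0.05, 228 genes were higher (3.18%) and 413 were lower (5.76%), 641 in all (8.95%), where 358.25 in both directions together would pass if no gene differed. The authors' deposited table for total RNA, made from read counts, lists 104 genes at an adjusted p under 0.05, of which 72 rose and 32 fell after knockdown. Of these, 56 that rose (0.782% of the tested genes) and 25 that fell (0.349%) were among the 7165. In all 81 the 2 knockdown libraries lay on 1 side of both scrambled libraries, and their limma p ran from 2.72e-05 to 0.0215. The same position held for 11.3% of all tested genes above and 24.1% below. "Rose" and "fell" are used below only for genes in the authors' deposited table, which rests on the same libraries and is not independent of the TPM values.

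The 4 columns summed to between 999689 and 999774 TPM, read depth is unknown, and the tested genes held 94.3% to 94.7% of TPM in each library. The ribosomal RNA precursor Rn45s took 6.86% and 7.80% of TPM in scrambled libraries 1 and 2 and 6.07% and 14.3% in knockdown libraries 1 and 2. The median difference of all tested genes was -0.06, and 37.7% of them were above 0, against 52.0% once each library was centred on its median. The median SE was 0.157, and the median 95% interval reached 0.399 to either side, so differences under about this size were not resolved. At the minimum, 186 genes had means from 20 to under 21 TPM and 213 had means from 19 to under 20 TPM. The 23 authors' genes outside the tested set had means of 5.25 to 19 TPM. Among defining markers of other cell types, Aif1 and Cx3cr1 of microglia and Cldn5 and Pecam1 of endothelium were listed at 0 in all 4 libraries. The astrocyte filament gene Gfap ran from 1488 to 3078 TPM, beside 119 to 180 TPM for the neuronal nuclear gene Rbfox3, so the cultures labelled as neurons also held glial RNA.

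**Figure D1:**
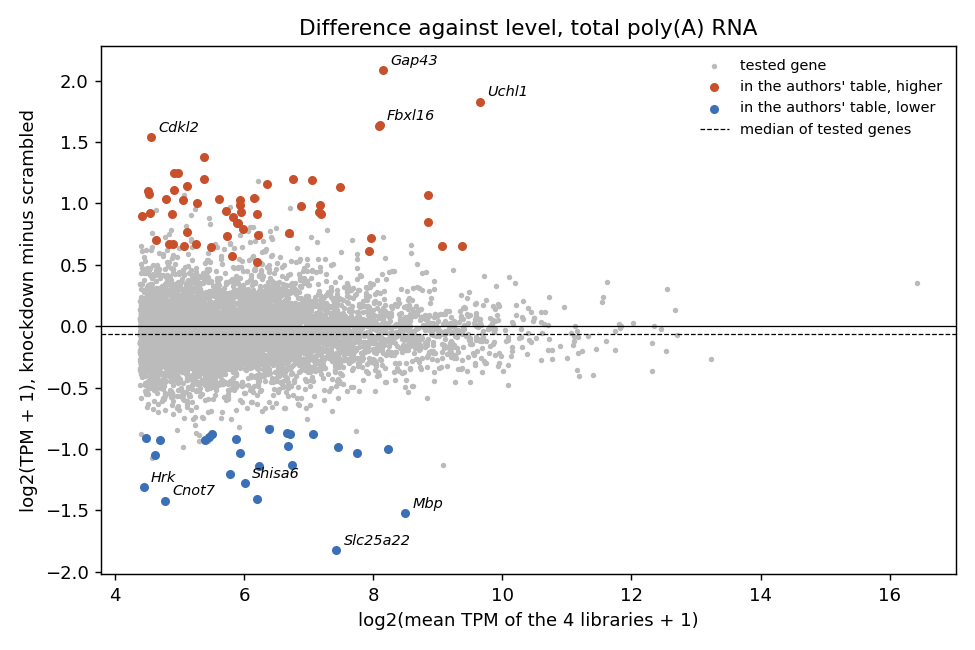
Difference after Cnot7 knockdown (log2(TPM + 1), knockdown minus scrambled) against mean level (log2 of the mean TPM of the 4 libraries + 1), 1 point for each of the 7165 tested genes. Coloured points are the 56 genes that rose and the 25 that fell in the authors' deposited table; they lie at the edge of the cloud at every level, and the dashed line is the median of all tested genes (-0.06).

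The targeted mRNA was lower in both knockdown libraries. Cnot7 (GRCm38 chromosome 8, 40492540 to 40515847, minus strand) was at 42 and 36 TPM in the scrambled libraries and at 12 and 16 TPM in the knockdown libraries. The groups did not overlap, and the scrambled mean was 2.79 times the knockdown mean. Its difference was -1.42 ± 0.18 (SE; limma p = 0.000482, adjusted p = 0.240), and in the authors' deposited table it fell by 1.12 (log2; adjusted p = 3.96e-05).

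Other parts of the complex moved little. Cnot8, the paralogous catalytic subunit, was at 63 and 64 TPM in scrambled and at 59 and 46 TPM in knockdown libraries. Its difference of -0.28 had a 95% interval from -0.69 to 0.13 (limma adjusted p = 0.667), so a large rise in the paralogue's mRNA lies outside that interval. Cnot6, of the other nuclease pair, had 21 and 24 TPM against 23 and 20 TPM, and the scaffold Cnot1 had 43 and 47 TPM against 47 and 53 TPM; the groups overlapped for Cnot6 and met at 47 TPM for Cnot1. Of the adaptors, Tnrc6c was lower in both knockdown libraries, at 20 and 22 TPM against 28 and 30 TPM (limma adjusted p = 0.429), and so was Tob2, at 28 and 27 TPM against 35 and 33 TPM. Over the 16 tested members of the complex and its TOB, BTG and TNRC6 partners, 13 were lower and 3 higher, with a median of -0.13 beside -0.06 for all tested genes. Cnot7 was the 1 member in the authors' deposited table. Among poly(A) polymerases, poly(A)-binding proteins and other tail factors, 10 of 23 tested members were higher. The 1 that rose in the authors' deposited table was Nudt21, a subunit of the cleavage factor that helps to choose polyadenylation sites. It went from 60 and 49 TPM to 95 and 88 TPM. Lsm14b, a P-body protein of the decay list, rose too in the authors' deposited table, from 44 and 45 TPM to 69 and 64 TPM.

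Because Pumilio proteins, AU-rich elements and microRNAs bring this complex to mRNAs, the 3′ UTRs of the genes that rose and fell were searched for their short motifs. The sites shown come from 3 mRNAs that rose and 3 that fell in the authors' deposited table. Each is 28 bases of GRCm38 sequence on the strand of the gene, with the Pumilio-type motif TGTANATA in capitals.
Kif2a, chr13:106961683-106961710, minus strand: catgagtgatTGTACATActttgcctac
Ugcg, chr4:59222068-59222095, plus strand: tctgtaaatgTGTATATActataaatac
Fbxl16, chr17:25821127-25821154, plus strand: attttcttatTGTACATAacgacctcat
Cnot7, chr8:40493921-40493948, minus strand: cacacatgctTGTATATAggttttatca
Hrk, chr5:118186786-118186813, plus strand: ccaagtcctcTGTAAATActctcctgta
Arpp19, chr9:75057513-75057540, plus strand: gtgccattttTGTAAATAcaatagtttt
The motif was thus present on both sides. It stood in 30.9% of the 55 3′ UTRs of genes that rose, in 27.3% of the 22 of genes that fell and in 26.6% of the 7003 of all tested genes with an annotated 3′ UTR. Per kilobase it stood at 0.228 in genes that rose and at 0.215 in genes that fell beside 0.248 in all tested genes. The AU-rich motif TATTTAT stood in 41.8% and 40.9% of the 2 sets beside 27.9% of all tested genes, and the motif TTTTAT, which CPEB proteins bind, in 72.7% and 68.2% beside 54.4%. The 3′ UTRs of both sets were longer than usual, with medians of 1612 and 1965 bases against 1066. Per kilobase the AU-rich motif stood at 0.436 in genes that rose and at 0.323 in genes that fell beside 0.274 in all, and TTTTAT at 1.11 and 0.968 beside 0.959; none of these differences was tested. Seed matches of let-7 (CTACCTC) stood in 10.9% of the 3′ UTRs of genes that rose, in 13.6% of those that fell and in 8.25% of all. These searches read the mRNA strand only, and a match is a description of letters, not a bound site.

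**Figure D2:**
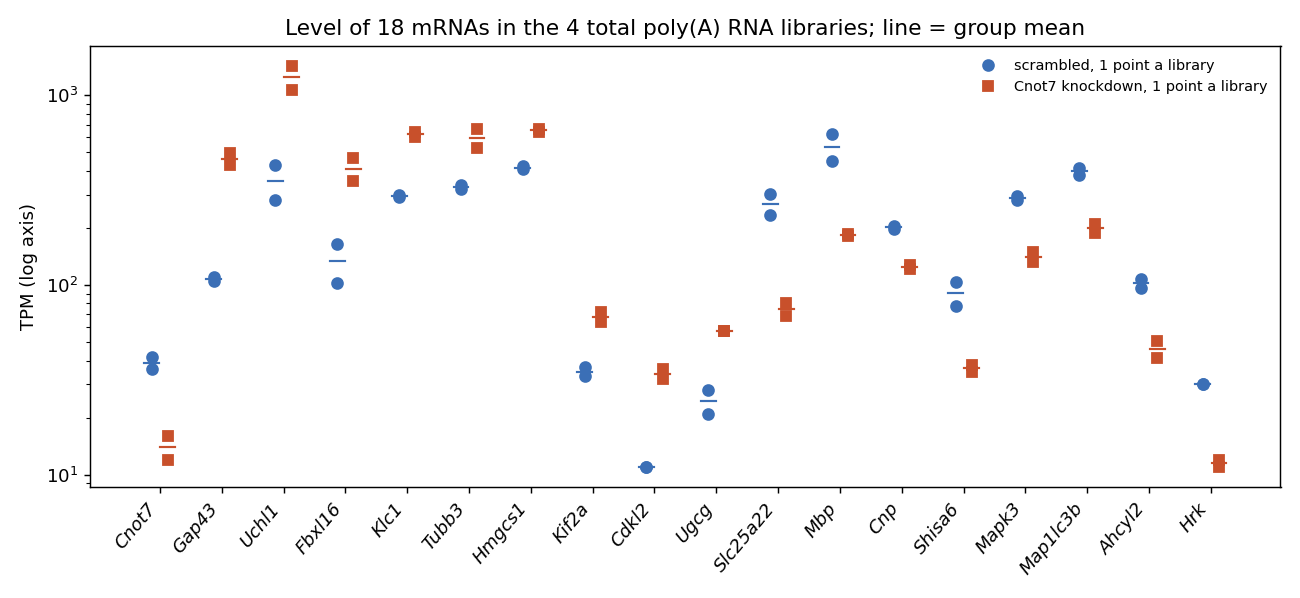
TPM of 18 mRNAs in each of the 4 libraries (log axis), with circles for the scrambled and squares for the knockdown libraries and a line at each group's mean. In all 18 the groups do not overlap: 9 lie higher in both knockdown libraries, from Gap43 to Ugcg, and 9 lie lower, Cnot7 and the 8 from Slc25a22 to Hrk.

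Genes of axon growth and of the microtubule cytoskeleton held the largest increase. Gap43, a membrane phosphoprotein of growth cones (chromosome 16, 42248442 to 42340651, minus strand), was at 110 and 105 TPM in scrambled and at 496 and 427 TPM in knockdown libraries. Each knockdown value was about 4 times each scrambled value, with a ratio of means of 4.29. The difference of 2.09 ± 0.15 (SE) had the smallest limma p of all tested genes (2.72e-05, adjusted p = 0.195), and Gap43 rose by 1.84 (log2; adjusted p = 9.75e-18) in the authors' deposited table. Basp1, a related protein of the growth cone membrane, rose in that deposited table as well and was at 885 and 736 TPM against 580 and 455 TPM. Map1b, a microtubule-associated protein of growing axons, had 468 and 471 TPM against 301 and 292 TPM (limma adjusted p = 0.316), and Dcx, which marks young neurons, had 23 and 29 TPM against 17 and 16 TPM; neither is in the authors' deposited table. Of the 32 tested members of the growth cone list, 26 were higher (81.25%, beside 37.7% of all tested genes), and the median was 0.16. Of the 32, 14 were higher with no overlap between groups, beside 11.3% of all tested genes. The actin-severing protein gene Cfl1, at 2336 and 1692 TPM against 2863 and 2423 TPM, was among the 6 that were lower. Nrn1, a secreted protein that promotes neurite growth, rose in the authors' deposited table, from 195 and 179 TPM to 327 and 291 TPM.

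Tubulin isotypes did not move as a group. Tubb3, the neuronal beta-tubulin, rose in the authors' deposited table (0.83, log2; adjusted p = 0.000724) and was at 662 and 530 TPM against 336 and 322 TPM. Tubg1, the gamma-tubulin that nucleates microtubules, rose there too, with 82 and 64 TPM against 45 and 33 TPM. Tuba1a, the most abundant isotype by TPM, had 6411 and 4945 TPM in scrambled and 6555 and 4676 TPM in knockdown libraries, which overlap. Of 13 tested tubulins 7 were higher and 6 lower, and the median of 0.07 turned to -0.16 without knockdown library 1. Alpha-tubulin genes are near copies of each other, so reads may be split between them.

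Motor and transport genes included clear single increases. Klc1, a kinesin light chain that links the motor to cargo, was at 291 and 300 TPM and then at 644 and 600 TPM, 2.10 times the scrambled mean, and rose in the authors' deposited table (1.01, log2; adjusted p = 8.94e-06). Kif2a, a kinesin that shortens microtubules and trims axon branches, went from 33 and 37 TPM to 64 and 72 TPM. Of 31 tested motors and adaptors, 18 were higher, and these 2 were the ones in the authors' deposited table. 2 regulators of actin that belong to no list here also rose in the authors' deposited table and were chosen for mention after their values were seen: Daam1, a formin, went from 28 and 34 TPM to 60 and 69 TPM, and Elmo1, which activates Rac, from 28 and 17 TPM to 64 and 53 TPM. Ablim3, an actin-binding LIM protein, was under the level minimum at 16 and 16 TPM against 6 and 6 TPM and rose in the authors' deposited table (1.23, log2; adjusted p = 3.52e-06).

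In protein turnover, the largest increases were in 2 genes. Uchl1, an abundant neuronal ubiquitin hydrolase, was at 428 and 282 TPM in scrambled and 1428 and 1072 TPM in knockdown libraries, with a difference of 1.83 ± 0.27 (SE; limma adjusted p = 0.240). The authors' deposited table gives it a rise of 1.47 (log2; adjusted p = 2.56e-08). Fbxl16, an F-box protein of brain, was at 468 and 353 TPM against 165 and 103 TPM, and its rise there was 1.35 (log2; adjusted p = 5.29e-07). For both genes, scrambled library 1 was higher than scrambled library 2, but the gap between groups was larger than the spread within either. Of 31 tested ubiquitin hydrolases and F-box adaptors, Uchl1 and Fbxl16 included, 15 were higher (48.4%, beside 37.7% of all tested genes). The median was 0.00. Without overlap 9 were higher and 7 lower, beside 11.3% and 24.1% of all tested genes. At an unadjusted limma p under 0.05, 6 were higher and 1 lower, beside 3.18% and 5.76% of all tested genes. Usp22, a histone deubiquitinase, was among the higher ones at 262 and 239 TPM against 169 and 139 TPM (limma adjusted p = 0.342). Proteasome subunits showed small differences, mostly of 1 sign: 27 of 32 were higher, 10 without overlap, beside 37.7% and 11.3% of all tested genes. Their median was 0.15, with a lowest value of 0.05 when each library was left out in turn. The largest difference was 0.27 (Psmc6, an ATPase of the base). Relative to each gene's mean, the list medians were -0.13 and -0.03 in scrambled libraries 1 and 2. They were 0.18 and -0.02 in knockdown libraries 1 and 2, so knockdown library 2 was close to scrambled library 2. None of the 32 had an unadjusted limma p under 0.05.

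Kinases and metabolic enzymes added several well-separated increases. Cdkl2, a CDK-like kinase, was at 11 TPM in both scrambled libraries and at 32 and 36 TPM in knockdown libraries, a ratio of 3.09. It rose by 1.47 (log2; adjusted p = 3.51e-12) in the authors' deposited table. Prkag2, a regulatory subunit of AMP-activated kinase, rose in the authors' deposited table, from 43 and 40 TPM to 78 and 72 TPM. Genes of 4 mitochondrial proteins rose there too. Pdha1, of pyruvate dehydrogenase, went from 96 and 105 TPM to 196 and 185 TPM. Pccb, of propionyl-CoA carboxylase, went from 41 and 37 TPM to 88 and 74 TPM, and Oxct1, which starts ketone body use, from 190 and 195 TPM to 297 and 292 TPM. Tomm70a, an import receptor of the outer membrane, was at 50 TPM in both scrambled libraries and at 87 and 104 TPM in knockdown libraries. Of 38 tested members of the glycolysis and TCA cycle list, which holds Pdha1 and Pccb, 29 were lower (23.7% higher, beside 37.7% of all tested genes), with a median of -0.09 that turned to 0.06 without knockdown library 2. Enoph1, of methionine salvage, rose from 21 and 20 TPM to 49 and 44 TPM in the authors' deposited table, whereas Ahcyl2, related to the hydrolase of S-adenosylhomocysteine, fell there, from 108 and 96 TPM to 41 and 51 TPM.

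Within cholesterol synthesis, an early enzyme stood apart. Hmgcs1, which makes HMG-CoA, was at 665 and 643 TPM against 424 and 408 TPM and rose by 0.68 in the authors' deposited table (log2; adjusted p = 0.00123). Stard4, a sterol carrier, had 24 and 26 TPM against 16 and 15 TPM (limma adjusted p = 0.302). In both genes the groups were well apart, but most of the pathway overlapped: Sqle, of squalene oxidation, had 251 and 202 TPM against 207 and 159 TPM. Of 32 tested members 24 were higher, beside 37.7% of all tested genes, and 4 were higher without overlap, near the 11.3% of all tested genes. The list median of 0.18 was -0.02 without knockdown library 1. The genes of the transcription factors themselves overlapped, with Srebf2 at 160 and 137 TPM against 175 and 129 TPM and Srebf1 at 71 and 60 TPM against 79 and 67 TPM.

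Sterol-responsive genes are commonly switched on by SREBP proteins at a sterol regulatory element, and the promoters of the pathway were searched for 1 form of it. The motif TCACNCCAC, on either strand, stood in 408 of 32851 mouse promoters in the RefSeq table, each from 250 bases before to 50 after a start site (1.24%), in 94 of 7254 promoters of tested genes (1.30%) and in 1 of 29 promoters of the sterol list, which cover 23 of its genes. That 1 was Hmgcs1. Its 250 bases before the start site are shown because both the gene's rise and the element meet there (RefSeq, GRCm38.p6, plus strand), with the element in capitals.
Hmgcs1, chr13:119690101-119690350: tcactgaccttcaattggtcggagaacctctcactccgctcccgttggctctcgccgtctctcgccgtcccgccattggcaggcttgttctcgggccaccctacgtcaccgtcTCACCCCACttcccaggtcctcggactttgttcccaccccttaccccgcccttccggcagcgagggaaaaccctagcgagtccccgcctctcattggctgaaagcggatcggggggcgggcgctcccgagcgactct
The CCAAT motif, on either strand, stood in 69.0% of the promoters of the sterol list and in 37.1% of those of tested genes.

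Among sphingolipid enzymes, 2 further genes rose in the authors' deposited table. Ugcg, which makes glucosylceramide, the start of gangliosides, was at 57 and 57 TPM against 28 and 21 TPM and rose by 1.10 (log2; adjusted p = 8.44e-06) in the authors' deposited table. Sgms1, a sphingomyelin synthase, rose there as well, from 18 TPM in both scrambled libraries to 30 TPM in both knockdown libraries. Smpd3, a neutral sphingomyelinase, had 114 and 98 TPM against 70 and 54 TPM (limma adjusted p = 0.342). The remainder of the list did not follow, with 15 of 22 tested members lower and a median of -0.08 that was 0.01 without scrambled library 1.

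At the synapse, single genes moved in both directions while families did not. A pair of auxiliary subunits of AMPA receptors went opposite ways. Cacng2 (stargazin), which carries receptors to the synapse, rose in the authors' deposited table and was at 46 and 37 TPM against 20 and 14 TPM. Shisa6, which holds receptors at the synapse, fell there (-0.96, log2; adjusted p = 0.00367) and was at 35 and 38 TPM against 104 and 78 TPM. Of 25 tested ionotropic glutamate receptor and auxiliary genes, 11 were higher and 14 lower, and the median of -0.01 was above 0 under quantile normalisation, median centring and without Rn45s. Psd3, an exchange factor for ARF6 found at the postsynaptic density, rose in the authors' deposited table from 43 and 47 TPM to 79 and 111 TPM, and knockdown library 2 was the highest of the 4. Psd3 was the 1 of 43 tested dendritically localised mRNAs in the authors' deposited table. That list had 25 members higher and 18 lower, 6 and 1 of them without overlap, and a median of 0.03. Over all tested genes 11.3% were higher and 24.1% were lower without overlap. Synaptic vesicle genes had 18 of 44 tested members higher, with a median of -0.02 that was above 0 under those same 3 scalings. Sh3gl2 (endophilin A1), which acts in vesicle endocytosis, was at 103 and 97 TPM against 165 and 148 TPM (limma adjusted p = 0.321).

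Channels and calcium-binding proteins were similarly divided. Cacna2d1, an auxiliary subunit of calcium channels and the receptor of gabapentin, rose in the authors' deposited table and was at 37 and 50 TPM against 18 and 17 TPM. Kcnip2, which binds Kv4 potassium channels, fell there and was at 34 and 30 TPM against 91 and 62 TPM. Kcnh3, of the ether-a-go-go family, had 19 and 16 TPM against 31 and 26 TPM (limma adjusted p = 0.347), and the sodium channel subunit Scn2b had 53 and 54 TPM against 83 and 82 TPM (limma adjusted p = 0.294). Of 26 tested potassium channel genes and partners, 17 were lower, 8 of them without overlap, with a median of -0.09 that was 0.02 without scrambled library 1. These shares were near those of all tested genes, of which 62.0% were lower and 24.1% lower without overlap. The calcium buffers calbindin (Calb1) and calretinin (Calb2) both rose in the authors' deposited table. Calb1 was at 30 and 43 TPM against 16 and 18 TPM, and Calb2 at 170 and 195 TPM against 63 and 99 TPM. Hpcal4, a calcium sensor, had the opposite sign, at 120 and 118 TPM against 195 and 169 TPM. Adcy5, an adenylyl cyclase, rose in the authors' deposited table, from 24 and 18 TPM to 47 and 40 TPM.

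The largest decrease after knockdown was in a mitochondrial carrier. Slc25a22, which brings glutamate into mitochondria (chromosome 7, 141429744 to 141437892, minus strand), was at 301 and 235 TPM in scrambled and at 80 and 69 TPM in knockdown libraries. The groups were far apart, with a scrambled mean 3.60 times that of knockdown. Its difference was -1.83 ± 0.18 (SE; limma p = 0.000134, adjusted p = 0.240), and it fell by 1.48 (log2; adjusted p = 6.56e-11) in the authors' deposited table. Slc25a39, a carrier of glutathione, fell there too, with 135 and 98 TPM against 276 and 190 TPM. Of 24 tested mitochondrial carriers 19 were lower and 5 higher (20.8% higher, beside 37.7% of all tested genes), with a median of -0.11. Of the 24, 7 were lower without overlap, near the 24.1% of all tested genes, and 1 was higher. Cox15, which makes haem A for cytochrome oxidase, was under the level minimum, at 22 TPM in both scrambled and 10 TPM in both knockdown libraries, and fell in the authors' deposited table. The oxidative phosphorylation subunits themselves had 61 of 76 lower (19.7% higher, beside 37.7% of all tested genes), with a median of -0.11. Of the 76, 18 were lower without overlap, near the 24.1% of all tested genes. None of the 61 had an unadjusted limma p under 0.05, beside 5.76% of all tested genes that were lower at that p. The median was 0.01 without knockdown library 2.

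Genes of cell death, autophagy and signalling were among the others that fell. Hrk, a BH3-only activator of apoptosis in neurons, was at 30 TPM in both scrambled libraries and at 12 and 11 TPM in knockdown libraries, and fell by 1.10 (log2; adjusted p = 3.52e-06) in the authors' deposited table. Bnip3, a mitochondrial relative, had 159 and 140 TPM against 321 and 229 TPM (limma adjusted p = 0.351) and is not in that table. Of 16 tested genes of the Bcl2 family and cell death, 11 were lower, 4 of them without overlap (median -0.11). These shares were near those of all tested genes, of which 62.0% were lower and 24.1% lower without overlap. Map1lc3b, the LC3 protein of autophagosomes, fell in the authors' deposited table, from 382 and 416 TPM to 209 and 189 TPM. So did the kinase Mapk3 (ERK1), from 296 and 281 TPM to 149 and 132 TPM. Arpp19, an inhibitor of protein phosphatase 2A, fell there from 55 and 53 TPM to 27 and 29 TPM. Dnajb5, a heat shock cochaperone, fell from 145 and 124 TPM to 74 and 62 TPM in the same deposited table, while 32 of 44 tested chaperones were higher (median 0.08, and -0.01 without scrambled library 1). Gpr158, a G protein-coupled receptor of neurons, fell there from 55 and 57 TPM to 28 and 31 TPM, and Stat3, a cytokine-responsive transcription factor named after its values were seen, from 111 and 102 TPM to 62 and 56 TPM. Galnt16, which starts O-linked glycans, and Smap2, an ARF GTPase activator, each had knockdown values between 68 and 74 TPM against 125 to 141 TPM in scrambled libraries and fell in the authors' deposited table.

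Myelin genes were lower after knockdown. Mbp, the major myelin basic protein gene, was at 452 and 622 TPM in scrambled and 185 and 182 TPM in knockdown libraries, and fell by 1.13 (log2; adjusted p = 6.47e-05) in the authors' deposited table. Cnp, an enzyme of oligodendrocyte cytoplasm, had 128 and 121 TPM against 198 and 205 TPM (limma adjusted p = 0.290). Sirt2, a deacetylase rich in myelin, had 353 and 300 TPM against 468 and 444 TPM (limma adjusted p = 0.481). Mobp and Mog, of compact and outer myelin, were under the level minimum and were also lower, at 3 and 1 TPM against 7 and 7 TPM and at 1 and 1 TPM against 4 and 2 TPM. Of the 12 tested mature oligodendrocyte genes 11 were lower, 8 without overlap, beside 62.0% and 24.1% of all tested genes. The list median was -0.50. The other 20 of the 32 list members with an entry were under the minimum. The lineage markers Olig1 and Olig2 overlapped between groups: Olig1 had 579 and 585 TPM against 805 and 540 TPM, and Olig2 had 145 and 144 TPM against 170 and 135 TPM. Of 12 tested precursor genes all 12 were lower (median -0.23), but only 2 without overlap, beside the same 62.0% and 24.1% of all tested genes. Gpr17, of cells about to myelinate, was the 1 precursor gene with an unadjusted limma p under 0.05. It had 45 and 40 TPM against 70 and 56 TPM (limma adjusted p = 0.433). In such bulk RNA, fewer cells of a type and less RNA per cell cannot be told apart.

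Astrocyte genes differed less. Of 30 tested astrocyte and radial glia genes 28 were lower, 13 without overlap, beside 62.0% and 24.1% of all tested genes. The list median was -0.26, and none of the 30 had an unadjusted limma p under 0.05. The glutamate transporter gene Slc1a3 had 603 and 569 TPM against 702 and 789 TPM, the gap junction gene Gja1 had 218 and 218 TPM against 243 and 295 TPM, and the water channel gene Aqp4 had 327 and 364 TPM against 370 and 423 TPM. Gfap followed the library and not the group, with 2934 and 1767 TPM in scrambled and 3078 and 1488 TPM in knockdown libraries. Summed over the whole list, astrocyte genes ran from 29013 to 30485 TPM in scrambled and from 24060 to 27432 TPM in knockdown libraries, and mature oligodendrocyte genes from 2338 to 2491 TPM and from 1465 to 1633 TPM. Pan-neuronal genes had 12 of 16 higher, with a median of 0.13, but this list includes Tubb3, and the markers Map2, Snap25, Syn1 and Rbfox3 overlapped between groups. Of the inhibitory markers, Gad1 was lower in both knockdown libraries (211 and 207 TPM against 279 and 265 TPM) and Gad2 was higher in both (104 and 100 TPM against 83 and 84 TPM). The part of these glial and neuronal marker differences in the values of other genes was not tested.

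Interferon-stimulated and antigen presentation genes leaned the same way as the glial genes. All 12 tested members were lower, 7 without overlap, beside 62.0% and 24.1% of all tested genes, with a median of -0.35. The other 36 of the 48 were under the level minimum. B2m, the light chain of class I molecules, had 649 and 577 TPM against 834 and 841 TPM (limma adjusted p = 0.501). Ifitm3, a membrane protein that restricts viral entry, had 354 and 293 TPM against 448 and 456 TPM (limma adjusted p = 0.493), and Bst2 (tetherin), which holds budding virus, had 25 and 30 TPM against 36 and 46 TPM (limma adjusted p = 0.463). The class I heavy chain gene H2-K1 overlapped, with 71 and 58 TPM against 69 and 65 TPM. No member is in the authors' deposited table. Summed over the list the scrambled libraries had 2368 and 2428 TPM and the knockdown libraries 1931 and 1706 TPM. Both groups carried lentivirus, and the labels do not tell how much virus each culture took up.

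**Figure D3:**
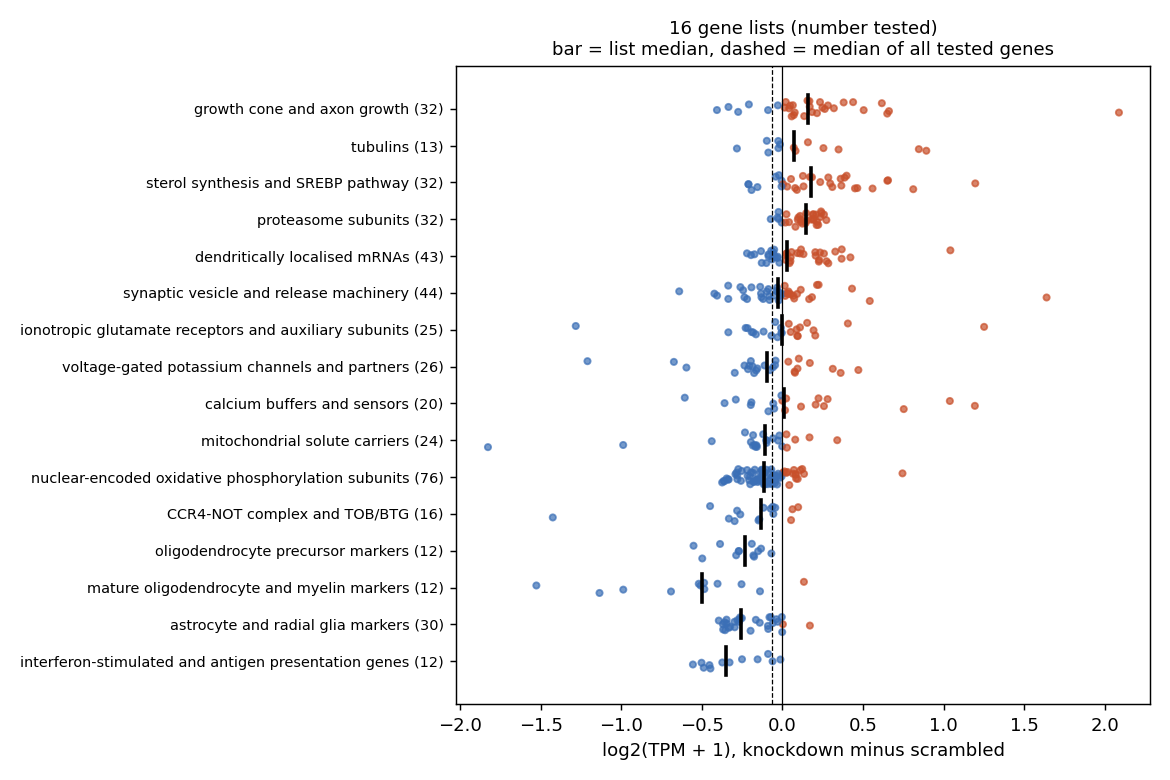
Difference of every tested member of 16 gene lists (log2(TPM + 1), knockdown minus scrambled), with the number tested in parentheses, a bar at each list's median and a dashed line at the median of all 7165 tested genes. Growth cone and proteasome genes lie mostly above 0, with medians of 0.16 and 0.15, and mature oligodendrocyte genes lie lowest, with a median of -0.50; single members such as Gap43 and Slc25a22 stand far from their lists.

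**Figure D4:**
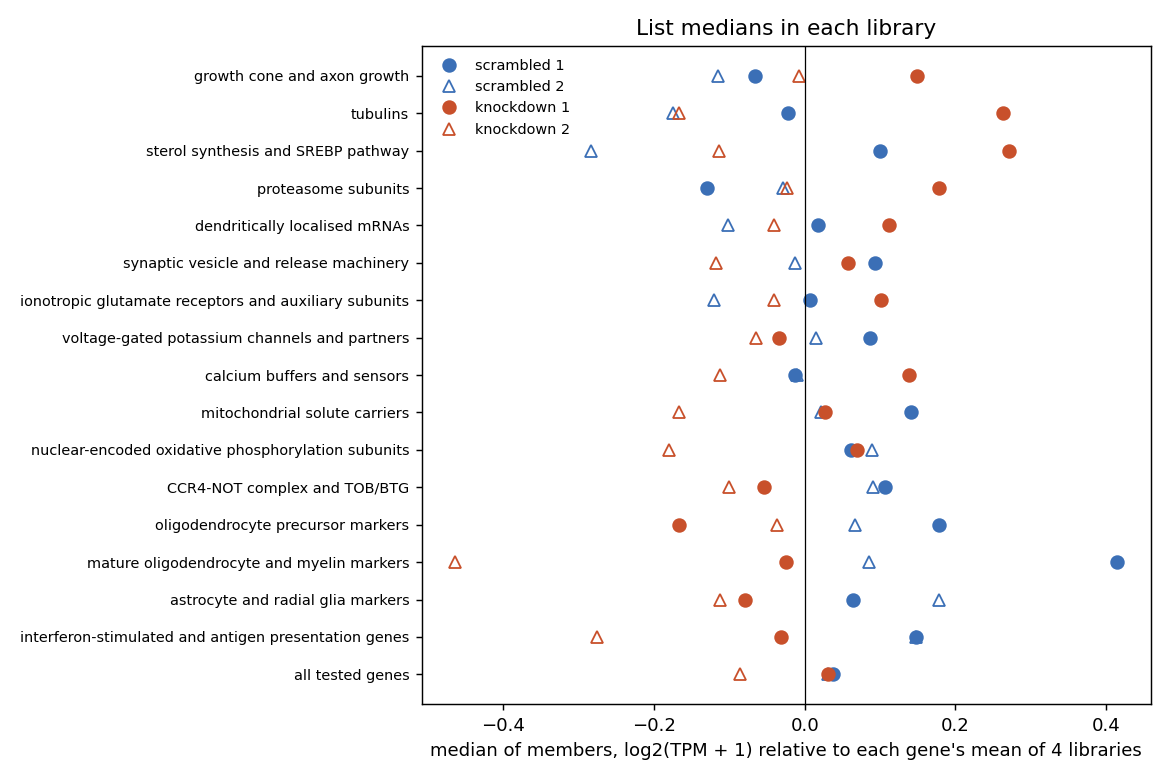
Median of each list's tested members in each library, as log2(TPM + 1) relative to each gene's own mean over the 4 libraries, with circles for libraries numbered 1, triangles for libraries numbered 2, and colour for the group. Both knockdown libraries lie below both scrambled libraries for the 2 oligodendrocyte lists and the astrocyte, interferon, potassium channel and CCR4-NOT lists. For tubulins, proteasome subunits and sterol genes knockdown library 2 lies near or below a scrambled library.

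The list medians by library show which lists were separated by group. For CCR4-NOT genes the list medians were 0.11 and 0.09 in scrambled libraries 1 and 2 and -0.05 and -0.10 in knockdown libraries 1 and 2. For potassium channel genes and partners they were 0.09 and 0.01 and then -0.03 and -0.06. For growth cone genes they were -0.07 and -0.11 and then 0.15 and -0.01. For sterol genes they were 0.10 and -0.28 and then 0.27 and -0.11, so knockdown library 2 lay below scrambled library 1. Over all tested genes knockdown library 2, which had the largest Rn45s share, was at -0.09 and the other 3 libraries at 0.03 to 0.04. Cytosolic ribosomal protein genes were near 0, with 51 of 79 higher and a median of 0.02 that was below 0 without scrambled library 1 and without knockdown library 1.

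Values in the long-tail libraries are set beside these as a description; the labels do not tell whether cultures were shared. There limma called 0 genes, with 318 (4.44%) at an unadjusted p under 0.05. For all 63 genes that stand in both of the authors' deposited tables, total and long-tail, the mean normalized count is the same in both, so the genes taken from the authors' table for total RNA were not chosen independently of the long-tail libraries. Gap43 had 416 and 615 TPM against 103 and 117 TPM in long tails, Cnot7 had 9 and 11 TPM against 28 and 31 TPM, and Mbp had 155 and 227 TPM against 414 and 661 TPM. In these 3 genes the groups did not overlap. Map1b had 358 and 80 TPM in the long-tail knockdown libraries against 218 and 177 TPM, which overlap.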

How the data were processed

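Poly(A) RNA was sequenced in 8 libraries in 4 groups of 2, of which the 2 scrambled and 2 knockdown libraries of total poly(A) RNA were compared. The mouse build mm10 and the tools TopHat2, CASAVA, DESeq2, DESeq and RSEM are named per the submitters' processing notes, without roles or versions. In the deposited gene table the values are TPM that the authors rounded to whole numbers, treated here as a score on a scale of 1000000 per library. It keeps no read depth, and counting intervals could not be given. In the authors' deposited tables, the columns are, per the file headers, a mean signal of normalized counts, a log2 fold change with its SE, a test score and a p-value, for genes under an adjusted p of 0.05 only. Their log2 fold change was turned so that positive means higher in knockdown.

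Values were log2(TPM + 1) for genes averaging at least 20 TPM. A linear model with trended empirical Bayes variances (limma 3.58.1 in R 4.3.3) was fitted to the 4 libraries, two-sided, with Benjamini-Hochberg adjustment over all 7165 genes, and was tested on simulated data. An exact permutation test of 2 against 2 cannot give a p under 0.333 and was not run. Lists (48, with 1053 tested members) are described by counts and medians only. Named genes are Cnot7, the 10 with the smallest p and the 5 with the largest difference per direction, the first 15 per direction of the authors' table, up to 4 per list by smallest p, and cell type markers, with exceptions stated or given only as contrasts within a list; some genes that this rule takes are not reported here. The comparison, lists and rule were chosen with earlier results of these data known. Of the tested names, 18 stood as dates and could not be matched to a gene. Symbols were placed on GENCODE (GRCm38), with 3′ UTRs from the principal transcript with the longest one. Other pseudocounts, level minimums, scalings, variance settings, a replicate block and each library left out were tried.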

Additional observations from a re-analysis of the deposited data

How the results depend on the processing

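limma called 0 genes higher and 0 lower, and still 0 in both directions with pseudocounts of 0.5 or 5, with quantile normalisation, without the trend, at minimums of 5 and 10 TPM (the latter chosen after seeing the data) and without each library in turn. It called 1 higher (Gap43) and 0 lower after median centring, without Rn45s and with robust variances. A minimum of 50 TPM gave 2 higher and 3 lower, among them Gap43, Slc25a22 and Mbp, and all 8 libraries in 1 fit gave 5 and 4, all of these in the authors' deposited table. With no minimum there were 56 and 102 calls, and at 1 TPM 27 and 74, but 153 of the 158 and 100 of the 101 lay under 10 TPM and 5 and 1 were in the authors' deposited table. The labels do not pair the libraries: same-numbered libraries correlated at r = 0.9787 and 0.9760 across genes, those of a group at 0.9701 and 0.9749, and deviations from the group means of same-numbered libraries correlated at 0.674 over 2 pairs. A replicate block gave 60 and 44 calls, 65 of the 104 in the authors' deposited table. With a block and 50 TPM together, chosen after seeing the data, there were 213 and 289.

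Cnot7 was called with 8 libraries (-1.42, adjusted p = 0.0300) and with the replicate block (-1.42, adjusted p = 0.0421), was under the 50 TPM minimum, and ran from -1.62 to -1.23 without each library in turn (adjusted p 0.585 to 0.786), with adjusted p from 0.0880 to 0.423 in the other fits.

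Of 1645 values of the 89 other named genes under the alternatives, 1514 kept their direction and side of the threshold, 102 passed it, most with the replicate block, and 29 changed sign, all in 11 genes whose difference was smaller than its SE; the cause was not tested. After quantile normalisation the log2 difference was 0.071 for Tuba1a, 0.028 for Srebf2 and 0.019 for Syn1. After median centring it was 0.046 for Tuba1a, 0.049 for Srebf2, 0.044 for Syn1, 0.0026 for Olig2 and 0.0098 for H2-K1. Without Rn45s it was 0.022 for Tuba1a, 0.025 for Srebf2 and 0.020 for Syn1. Without each library in turn it ran from -0.61 to 0.43 for Gfap, -0.22 to 0.37 for Rbfox3, -0.033 to 0.16 for Cnot6, -0.27 to 0.22 for Tuba1a, -0.24 to 0.20 for Srebf2, -0.47 to 0.11 for Olig1, -0.23 to 0.10 for Olig2, -0.29 to 0.12 for Map2, -0.070 to 0.30 for Snap25, -0.45 to 0.40 for Syn1 and -0.20 to 0.083 for H2-K1. Medians of the 46 lists changed sign in 94 of 872 values. Read depth is unknown, and values rounded to whole TPM limit the precision of low genes.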

Other observations

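Genes of inhibition, activity and imprinting held a few further separated values. Gabrb2, a GABA-A receptor subunit, was at 42 and 56 TPM in knockdown against 24 and 25 TPM in scrambled libraries (limma adjusted p = 0.259), and Gabra5, of extrasynaptic receptors in hippocampus, at 221 and 168 TPM against 137 and 91 TPM. Of 12 tested GABA receptor genes, 5 were higher and 7 lower. The orphan nuclear receptor Nr4a3 was at 101 and 93 TPM against 58 and 37 TPM, while Jun was at 92 and 91 TPM against 127 and 124 TPM, among 21 tested immediate early genes of which 14 were higher. Plagl1, an imprinted zinc finger gene, was at 23 and 32 TPM against 46 TPM in both scrambled libraries (limma adjusted p = 0.355). The authors' deposited table for the same comparison holds none of the genes named so far. Of 19 tested imprinted genes 9 were higher and 10 lower. Of the imprinted list used here, 2 members are in that deposited table, both under the level minimum. Both rose there and are named after their values were seen. Zdbf2 went from 3 TPM in both scrambled libraries to 5 and 10 TPM (0.92, log2, adjusted p = 0.0332). Usp29 went from 6 TPM in both scrambled libraries to 12 and 14 TPM (0.90, log2, adjusted p = 0.0191).

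Among the 7165 tested genes, 2 were at least 4 times higher (on TPM + 1) in both libraries numbered 1 than in both numbered 2, and 0 the other way round. The alpha-tubulin gene Tuba1c had 191 and 167 TPM in scrambled and knockdown libraries 1 and 4 TPM in both libraries 2, and 150 and 149 TPM against 6 and 5 TPM in long tails. H19, an imprinted non-coding RNA, had 52 and 31 TPM against 6 and 4 TPM. Knockdown and scrambled overlapped for both genes.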
